A study of Mus musculus with 2 samples.

Results

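Cholangiocytes are the epithelial cells that line the bile ducts, and 221 of the 13969 deposited barcodes of sorted mouse liver cells were assigned to them, 147 in the cirrhosis library and 74 in the control library. A barcode was taken as a cholangiocyte when it had at least 500 UMIs (unique molecular identifiers, each counted as 1 captured mRNA molecule), at least 300 genes and under 20% mitochondrial counts, at least 6 UMIs of Epcam, Krt19, Krt7 and Pkhd1 together with at least 2 of these genes detected, and under 0.5% of its UMIs from Stab1, Stab2, Clec4g and Dnase1l3, which mark liver sinusoidal endothelial cells (LSECs). The cells were thus chosen by their measured UMIs of these genes, whose levels are given as a description. Of the 7662 cirrhosis and 5168 control barcodes that passed the depth, gene and mitochondrial limits, cholangiocytes made up 1.92% (95% Clopper-Pearson interval 1.62 to 2.25) in cirrhosis and 1.43% (1.13 to 1.79) in control.

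Cholangiocytes modify bile by secreting chloride, bicarbonate and water, sense its flow with a primary cilium, and pass secretory immunoglobulin A into it. In chronic liver injury they can take part in a ductular reaction, in which ducts expand and their cells make adhesion molecules, chemokines and matrix-degrading enzymes. They are epithelial, not endothelial, so in a sort for endothelial cells they are bystanders.

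The libraries came from Cdh5-Cre+, mTmG +/+ mice on the C57BL/6 background, aged 16 weeks in both groups. In these mice a Cre driven by the endothelial cadherin promoter switches a membrane tdTomato reporter to membrane GFP. The non-parenchymal fraction of the liver was sorted for living cells with GFP. The cirrhosis mice had breathed vaporized carbon tetrachloride for 12 weeks. Each group was 1 library from 3 pooled mice, so no difference between the groups has a replicate check, and all intervals below cover counting error only. The cirrhosis library held 77339928 UMIs in 8327 barcodes and the control library 45767322 in 5642, and the libraries shared 17 barcode sequences, none of them among the cholangiocytes.

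The label held for part of the set. Among the cirrhosis cholangiocytes, 47 of 147 (32.0%) carried under 0.1% of UMIs from 11 pan-endothelial markers, under 3 UMIs from 6 mesothelial markers and under 0.2% from immune markers, against 23 of 74 (31.1%) in control. These are called biliary-only barcodes here. A further 94 of 147 cirrhosis barcodes (63.9%) and 39 of 74 control barcodes (52.7%) also carried endothelial transcripts at or above 0.1% of UMIs. Barcodes with at least 3 UMIs of the mesothelial genes Upk3b, Msln, Wt1, Muc16, Lrrn4 and Upk1b numbered 3 (2.04%) in cirrhosis and 9 (12.2%) in control, and 3 in each library carried immune transcripts only.

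In the biliary-only barcodes all 19 cholangiocyte markers were detected in cirrhosis and 18 in control. The 19 include Epcam, Krt19, Krt7 and Pkhd1, on which the cells were chosen, so the detection of these genes is no check of the label. Together the 19 markers took a median of 3.58% of UMIs in the cirrhosis cells and 3.67% in the control cells. By the way these barcodes were picked, endothelial and mesothelial transcripts had to be low in them. All 11 pan-endothelial markers had some UMIs and summed to 194 CPM (UMIs scaled to a total of 1000000) in cirrhosis and 320.2 in control, against 12966 and 15583 in the LSEC barcodes of the same libraries. Of the 6 mesothelial genes, Upk3b, Msln, Wt1 and Lrrn4 were at 0 in the cirrhosis cells and all 6 were at 0 in the control cells.

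The barcodes with endothelial transcripts had lower biliary marker shares, with medians of 1.56% in cirrhosis and 2.30% in control, and held more UMIs, with medians of 27877 and 20487 against 16529 and 13540 in the biliary-only barcodes. The doublet caller Scrublet marked 13 of these 94 cirrhosis barcodes and 2 of the 39 control barcodes, against 1 of 47 and 0 of 23 biliary-only barcodes. In the mesothelial barcodes the cholangiocyte markers took a median of 0.221% of UMIs (0.127 to 1.38) in cirrhosis and 0.249% (0.101 to 1.19) in control, with Krt19 at 437 and 634 CPM. The label did not hold for most of them, but 1 in each library, at 1.38% and 1.19%, also carried biliary transcripts, with 18 and 15 UMIs of Epcam and 240 and 133 of Spp1. Gene lists are therefore compared in all cholangiocyte barcodes and in the biliary-only barcodes, and the values of a gene name the set they come from. Counts of cells with a UMI and medians per cell are not matched for depth unless thinning is named. The shallowest biliary-only cell had 1506 UMIs in cirrhosis and 8440 in control.

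**Figure D1:**
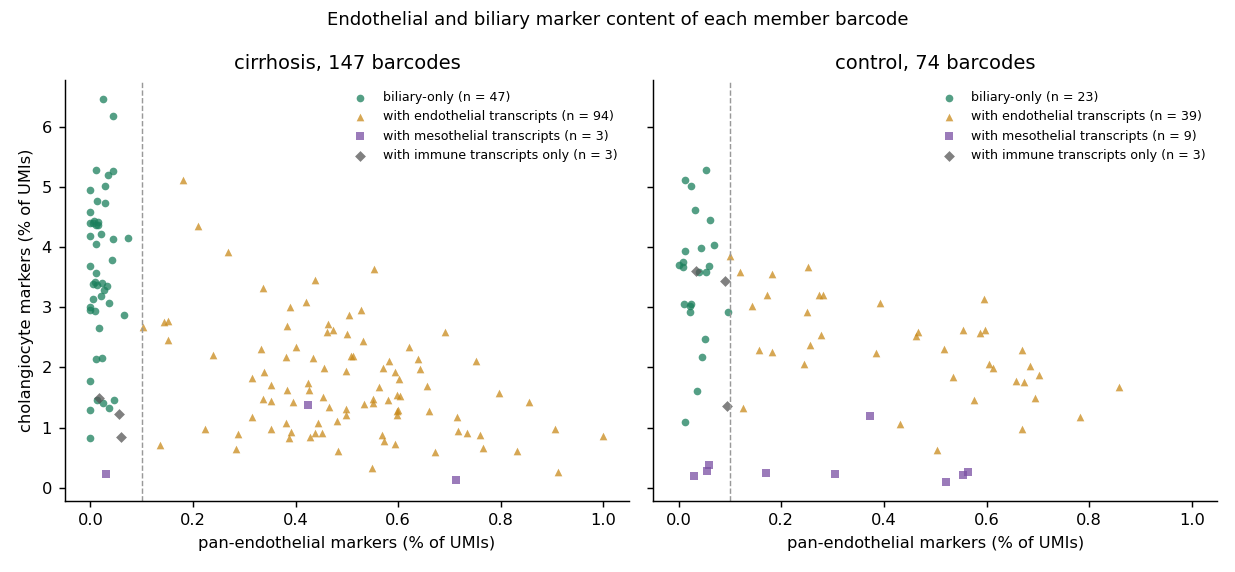
Each point is 1 cholangiocyte barcode, with the share of its UMIs from 11 pan-endothelial markers on the x axis and from 19 cholangiocyte markers on the y axis, cirrhosis on the left and control on the right. The dashed line marks 0.1%; the 47 cirrhosis and 23 control biliary-only barcodes lie to its left, and the mesothelial barcodes, 3 in cirrhosis and 9 in control, lie at the bottom except for 1 in each library, at 1.38% and 1.19%.

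Near the thresholds, 9 cirrhosis barcodes and 1 control barcode had 6 or 7 UMIs of the 4 epithelial genes, and 12 and 1 with 4 or 5 UMIs were left outside. The endothelial limit acted unevenly: it removed 11 cirrhosis and 40 control barcodes that had the epithelial UMIs. Without it there were 158 such barcodes (2.06%, 1.76 to 2.41) in cirrhosis and 114 (2.21%, 1.82 to 2.64) in control, so the order of the 2 shares depended on it. The 4 LSEC genes took a median of 0.807% of UMIs in cirrhosis LSEC barcodes and 1.13% in control ones. When each barcode was first thinned to 2000 UMIs, 15 of 6612 cirrhosis and 12 of 4669 control barcodes met the rule. The sort, the depth and this limit can set the shares, which are not read as a difference in duct cells.

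The reporter separated the biliary-only barcodes from the LSEC barcodes, but it did not mark the hepatocyte barcodes by their cell type. The membrane GFP transcript (eGFP_mTmG), which marks cells after Cre has acted, stood at 60.7 CPM (44.5 to 81.0, exact Poisson interval) in cirrhosis and 82.7 CPM (56.2 to 117) in control biliary-only barcodes. In barcodes with endothelial transcripts it stood at 693.5 and 830.4 CPM, and in LSEC barcodes at 1433 and 1647 CPM. The hepatocyte barcodes, which should lack it, held 159 and 219.7 CPM of it, more than the biliary-only barcodes. Their median depths were 1943 and 1604.5 UMIs, against 16529 and 13540 in the biliary-only barcodes, so they are not a background matched for depth.

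The tdTomato transcript ran the other way. It reached 198 CPM (168 to 232) in cirrhosis and 411 CPM (349 to 481) in control biliary-only barcodes, against 1.95 and 3.70 CPM in LSEC barcodes. In hepatocyte barcodes it stood at 9.35 and 3.75 CPM. Like the LSEC barcodes, these held more GFP than tdTomato, although hepatocytes should carry the unswitched reporter. The reason was not tested. A tdTomato UMI was found in 35 of 47 cirrhosis biliary-only cells, with a median of 126 CPM per cell. It was found in 23 of 23 control cells, with a median of 424 CPM. The cirrhosis cells without it were mostly those of at most 4483 UMIs, while the shallowest control cell had 8440, so these counts are not matched for depth. Among LSEC barcodes 1.63% in cirrhosis and 2.17% in control had one, at median depths of 10159.5 and 7310 UMIs, against 16529 and 13540 in the biliary-only barcodes. The biliary-only cells in a GFP sort thus carried mainly the unswitched reporter, and how they came through the sort was not tested. The log2 ratio of tdTomato, cirrhosis over control, was -1.05 (-1.39 to -0.72) in biliary-only barcodes and -1.11 in all cholangiocyte barcodes.

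**Figure D2:**
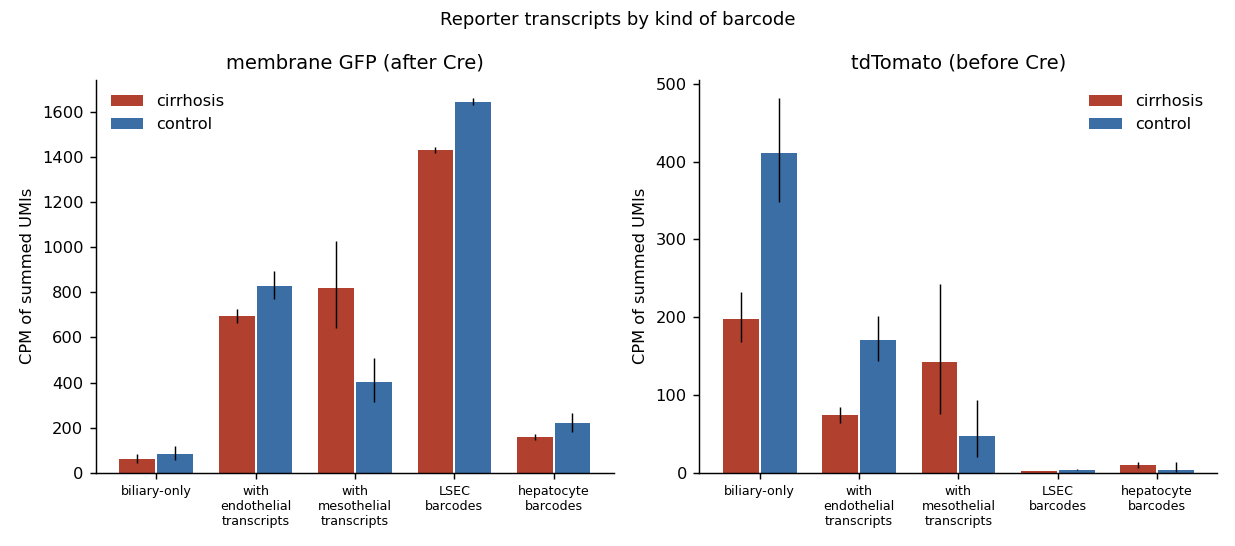
Bars give the summed CPM of the membrane GFP transcript (left) and the tdTomato transcript (right) in 5 kinds of barcode, cirrhosis beside control, with exact Poisson 95% intervals. Biliary-only barcodes are lowest for GFP and highest for tdTomato, with 198 CPM in cirrhosis and 411 CPM in control.

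Among biliary identity genes, several defining ones were at similar levels in the biliary-only barcodes of both libraries. Spp1, which encodes the secreted phosphoprotein osteopontin, was the most abundant of the cholangiocyte markers at 21131 CPM in cirrhosis and 19831 CPM in control, and its UMIs were in 47 of 47 and 23 of 23 cells. Sox9, the transcription factor of duct cells, stood at 502 and 488 CPM (log2 ratio 0.04, -0.22 to 0.30). Among the genes of the rule, Epcam stood at 1225 and 888 CPM (0.46), the keratins Krt19 at 543 and 595 CPM (-0.13) and Krt7 at 181 and 141 CPM (0.35), and the cilium protein gene Pkhd1 at 309 and 304 CPM (0.02). Epcam, Krt19, Krt7 and Pkhd1 are at 0 in LSEC barcodes by construction, and Sox9, which the rule did not use, stood at 2.06 and 0.996 CPM there.

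Other markers differed more. Tspan8, a tetraspanin of epithelial membranes, stood at 1220 CPM in cirrhosis and 406 CPM in control (log2 ratio 1.59, 1.34 to 1.85; 1.33 over all barcodes), with medians of 1197 and 310 CPM per cell. Tm4sf4, a transmembrane protein gene, stood at 1958 and 2852 CPM (-0.54, -0.66 to -0.43). Krt23, a type I keratin, stood at 158 and 267 CPM (-0.75, -1.15 to -0.35). Cftr, the chloride channel of bile secretion, was too low to enter the comparison, at 27.7 and 34.7 CPM.

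The biliary identity list had 27 of its 30 genes measured in the biliary-only barcodes. Of these, 21 were higher and 6 lower in cirrhosis, with 2 past 2-fold higher and a median log2 ratio of 0.14, where 49.4% of all genes were higher by any amount. The list includes Epcam, Krt19 and Krt7, on which the cells were chosen, so its counts and medians are a description. Over all cholangiocyte barcodes 24 genes entered, 8 higher and 16 lower, with a median of -0.15, and Sox9 (-0.36), Krt19 (-0.57) and Krt7 (-0.55) were then lower. The median was -0.25 without the mesothelial barcodes, 0.14 with pan-endothelial markers under 0.1% and 0.11 without the LSEC limit, so its sign depended on which barcodes were taken. The markers Krt8 (0.10), Krt18 (0.32), Cldn3 (0.14), Cldn7 (0.04), Cdh1 (0.03), Bicc1 (-0.15), Cd24a (0.34) and Atp1b1 (-0.05) all stayed within a log2 ratio of 0.4 in the biliary-only barcodes.

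Some of the genes that stood highest over all other barcodes of the same library were not used by the rule. By this measure Sftpd, the surfactant protein D gene, whose product binds sugars on microbes, was 161-fold over the other cirrhosis barcodes and 98.9-fold over the other control barcodes. Ankrd1, a target of the YAP coactivator, was 160-fold and 91.6-fold over them, and Cldn4, a tight junction claudin, 186.5-fold and 60.4-fold. Nipal2, Bex4, F3, Fermt1, Sema3c and Krt23 were each at least 56.9-fold over them in both libraries. Upk3b was among them as well, at 61.2-fold and 89.1-fold, and it is one of the genes that define the mesothelial barcodes, which held 44 of its 48 UMIs in cirrhosis and 161 of 161 in control.

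For the comparison between groups, UMIs were summed over the barcodes of each library and scaled to CPM, and a gene entered with a mean of at least 50 CPM and at least 10 expected UMIs in the smaller sum. Over all cholangiocyte barcodes, 3789 genes entered, with a median log2 ratio of 0.04. Of these, 1.66% were at least 2-fold higher in cirrhosis (63 genes) and 1.64% at least 2-fold lower (62 genes), or 3.3% in either direction, and 55.4% were higher and 44.6% lower by any amount. In the biliary-only barcodes 3429 genes entered with a median of -0.02, and 3.06% were past 2-fold higher (105 genes) and 2.74% past 2-fold lower (94 genes), or 5.8% in either direction, with 49.4% higher and 50.6% lower by any amount. These shares are the background for the counts of each gene list. The sums held 3708311 UMIs in cirrhosis and 1450597 in control.

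More genes of the ductular reaction were higher than lower in the cirrhosis biliary-only barcodes, and over all cholangiocyte barcodes their split was near that of all genes. In the biliary-only barcodes 21 of 38 listed genes entered, 15 higher and 6 lower in cirrhosis, with a median of 0.49, where 49.4% of all genes were higher. Of the 21, 9 were past 2-fold higher and 2 past 2-fold lower, against 3.06% and 2.74% of all genes. Over all cholangiocyte barcodes 22 entered, 13 higher and 9 lower, where 55.4% of all genes were higher. Past 2-fold were 4 and 1, against 1.66% and 1.64% of all genes, and the median was 0.30. That median was 0.0773 among genes of at least 200 CPM and -0.0160 when each cell was thinned to 2000 UMIs, where fewer genes enter. The list was drawn up with earlier results of these data known.

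Mmp7, the metalloproteinase matrilysin, which cuts matrix and cell surface proteins of injured epithelia, lies at chr9:7692090-7699585 on the plus strand. It stood at 546 CPM in cirrhosis and 23.4 CPM in control over all cholangiocyte barcodes (log2 ratio 4.54, 4.05 to 5.07), and at 804 and 42.7 CPM in biliary-only barcodes (4.24, 3.52 to 5.05). Its UMIs were found in 34 of 47 cirrhosis biliary-only cells, with a lowest value of 0, a median of 513 and a highest of 6870 CPM per cell. They were found in 7 of 23 control cells, with a median of 0 and a highest of 602 CPM. The highest cirrhosis value came from 16 UMIs in a cell of 2329 UMIs. The ranges of the cells overlapped, since cells without an Mmp7 UMI were present in both libraries. After thinning each cell to 2000 UMIs, 54.5% of cirrhosis and 0% of control biliary-only cells had a UMI, against 0.522% and 0% of LSEC barcodes.

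The promoters of 3 genes that stood higher in cirrhosis are shown, chosen after their values were seen, because the AP-1 factors described below stood lower in the same cells. Each is the 250 bases before the RefSeq gene start on GRCm38.p6, read 5′ to 3′ on the gene's strand, for Mmp7 chr9:7691840-7692089 (plus), for Cldn4 chr5:134946935-134947184 (minus) and for Lcn2 chr2:32387740-32387989 (minus). Capitals mark matches on either strand to the AP-1 motif TGANTCA, the NF-kB motif (GGGA, any 2 bases, TTCC), the TATA box TATAAA or the TEAD motif GGAATG.
Mmp7: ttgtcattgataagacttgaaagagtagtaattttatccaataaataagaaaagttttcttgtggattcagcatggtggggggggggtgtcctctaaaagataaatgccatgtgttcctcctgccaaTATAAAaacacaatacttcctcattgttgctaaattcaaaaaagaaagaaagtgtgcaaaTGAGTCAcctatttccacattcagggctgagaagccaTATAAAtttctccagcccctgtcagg
Cldn4: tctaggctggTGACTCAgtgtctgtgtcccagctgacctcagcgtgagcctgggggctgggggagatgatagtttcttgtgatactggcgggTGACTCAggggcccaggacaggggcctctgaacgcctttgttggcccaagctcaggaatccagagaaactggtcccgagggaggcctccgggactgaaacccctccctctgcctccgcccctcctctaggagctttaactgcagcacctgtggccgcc
Lcn2: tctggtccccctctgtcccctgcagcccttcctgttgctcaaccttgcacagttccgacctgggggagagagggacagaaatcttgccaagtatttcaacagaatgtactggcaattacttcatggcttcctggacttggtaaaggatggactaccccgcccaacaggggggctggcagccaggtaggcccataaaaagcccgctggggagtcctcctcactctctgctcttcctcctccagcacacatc
The Mmp7 promoter held an AP-1 match 63 to 57 bases before the start, which reads the same way on both strands apart from its middle base, and TATA matches at 123 to 118 and 26 to 21 bases before it. The Cldn4 promoter held AP-1 matches at 240 to 234 and 158 to 152 bases before the start. The Lcn2 window held none of the 4 motifs. Of 32851 promoter windows of this length, 6.75% held the AP-1 motif, 1.21% the NF-kB motif, 12.4% the TATA box and 12.6% the TEAD motif, and none of the printed matches overlapped one of another motif. A match is a run of letters and not a shown binding site.

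Lcn2, listed with mucosal defence, encodes the iron-scavenging secreted protein lipocalin 2. It stood at 663 CPM in cirrhosis and 160 CPM in control over all cholangiocyte barcodes (log2 ratio 2.05, 1.86 to 2.25), and at 1137 and 328 CPM in biliary-only barcodes (1.79, 1.52 to 2.08). A UMI was present in 45 of 47 cirrhosis cells, with a median of 912 CPM, and in 19 of 23 control cells, with a median of 160 CPM. The hepatocyte barcodes moved with it, at 642 CPM in cirrhosis and 22.5 CPM in control, and the LSEC barcodes held 19.6 and 0.450 CPM, and their part in the result was not tested. Cldn4, of the biliary identity list, stood at 226 and 72.4 CPM over all barcodes (1.64) and at 426 and 88.0 CPM in biliary-only barcodes (2.28, 1.76 to 2.84), and 1 cirrhosis cell gave 29.4% of its UMIs.

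Vcam1 and Ccl2 of the ductular reaction list were higher in cirrhosis and Pdgfa was lower. Vcam1, which encodes an adhesion molecule for leukocytes, stood at 183 CPM in cirrhosis and 84.1 CPM in control over all barcodes (log2 ratio 1.12) and at 337 and 37.4 CPM in biliary-only barcodes (3.17, 2.40 to 4.06), in 31 of 47 and 7 of 23 cells. In LSEC barcodes Vcam1 lay the other way, at 69.1 and 114.5 CPM. Ccl2, a chemokine for monocytes, had 649 UMIs in cirrhosis and 3 in control over all barcodes (175 and 2.07 CPM, log2 ratio 6.40, 4.85 to 8.68). These lay in 25 cirrhosis and 3 control cells, and 1 cirrhosis cell gave 39.1% of them. All other passing barcodes held 10.6 and 16.1 CPM. Of the biliary-only cells, 11 of 47 in cirrhosis and 1 of 23 in control held Ccl2, and 1 cirrhosis cell gave 68.5% of its UMIs there. Pdgfa, a growth factor for mesenchymal cells, stood at 79.2 and 187 CPM in biliary-only barcodes (-1.24, -1.76 to -0.72) and at 72.3 and 147 CPM over all barcodes (-1.02).

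S100a6 and Cd44 of the same list, and Tm4sf1, were singled out after their values were seen, because their ratios differed between the sets of barcodes. S100a6, a calcium-binding protein gene, stood at 727 CPM in cirrhosis and 77.4 CPM in control biliary-only barcodes (log2 ratio 3.23, 2.69 to 3.82), in 42 of 47 cells with a median of 524 CPM and in 10 of 23 cells with a median of 0. Over all cholangiocyte barcodes it stood at 476 and 335 CPM (0.51), with 786 and 1850 CPM in the mesothelial barcodes. Cd44, the hyaluronan receptor, stood at 143 and 10.7 CPM in biliary-only barcodes (3.74, 2.34 to 5.64), in 19 of 47 and 2 of 23 cells. Its control value there rests on 4 UMIs, 75% of them in 1 cell. Over all barcodes Cd44 stood at 86.3 and 42.7 CPM (1.01). Tm4sf1, a membrane protein gene that is not in the list, stood at 1286 and 192 CPM (2.74, 2.40 to 3.11), in 43 of 47 and 11 of 23 cells, and at 1124 and 464 CPM over all barcodes (1.28), and LSEC barcodes also expressed it, at 850 and 716 CPM.

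**Figure D3:**
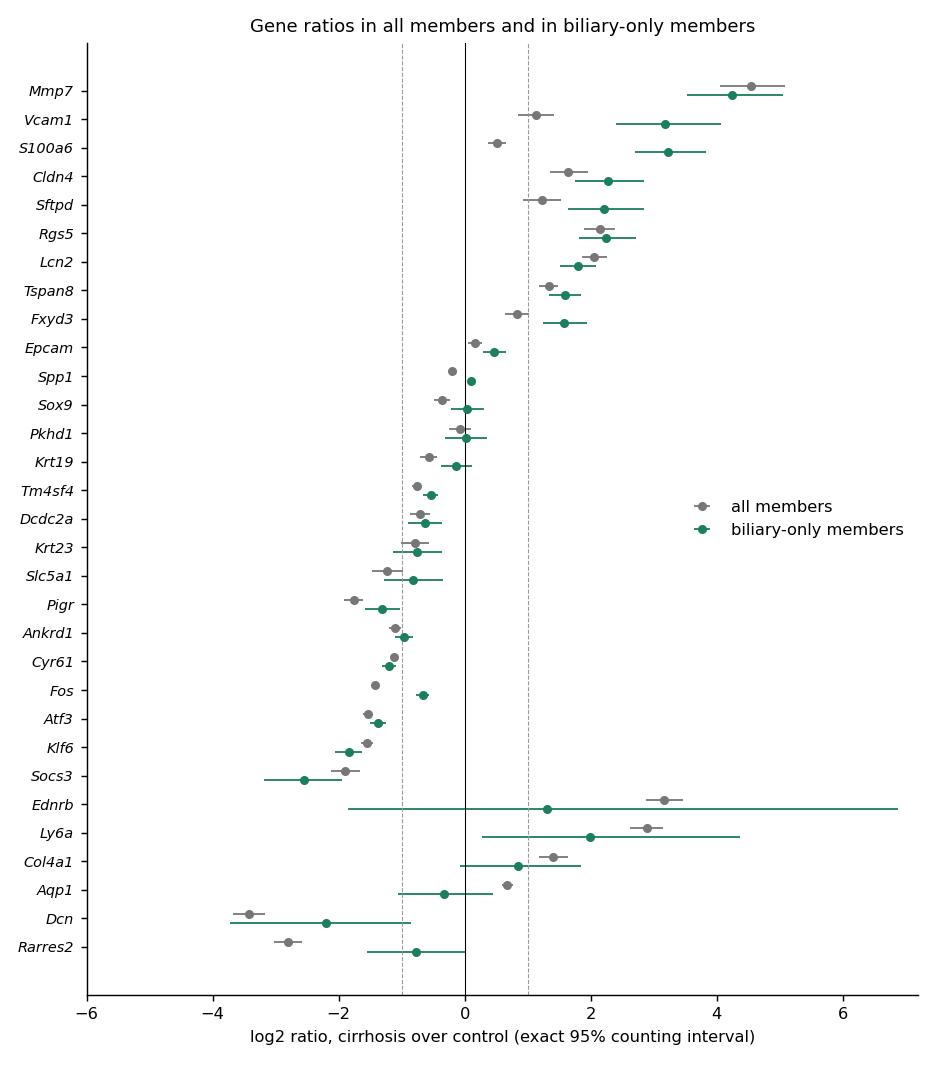
Points give the log2 ratio of CPM, cirrhosis over control, on the x axis for single genes down the page, in all cholangiocyte barcodes (grey) and in biliary-only barcodes (green), with exact 95% intervals for counting error and dashed lines at 2-fold. Mmp7 lies at 4.54 and 4.24 and Socs3 at -1.90 and -2.55, while Ednrb lies at 3.16 in all barcodes and has an interval across 0 in the biliary-only ones.

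Mucosal defence genes went in both directions. In biliary-only barcodes 13 of 24 listed genes entered, 8 higher and 5 lower, with 3 past 2-fold higher and 1 lower and a median of 0.17. There 49.4% of all genes were higher, 3.06% past 2-fold higher and 2.74% past 2-fold lower. Over all barcodes 5 were higher and 8 lower, with a median of -0.13, where 55.4% of all genes were higher. Pigr, the receptor that carries immunoglobulin A into bile, stood at 171 CPM in cirrhosis and 580.5 CPM in control over all barcodes (log2 ratio -1.76, -1.91 to -1.61) and at 259 and 640 CPM in biliary-only barcodes (-1.31, -1.59 to -1.03). Its UMIs were in 22 of 47 cirrhosis cells, with a median of 0, and in 22 of 23 control cells, with a median of 523 CPM. The hepatocyte barcodes held 268 and 800 CPM of Pigr, the same order. Muc1, a membrane mucin gene, stood at 139 and 53.4 CPM in biliary-only barcodes (1.38), and C3, the complement component, at 1147 and 467 CPM (1.30), while over all barcodes C3 stood at 1015 and 1110 CPM (-0.13), with 2827 and 5940 CPM in the mesothelial barcodes. Muc1 and C3 were named after their values were seen.

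The antiprotease gene Slpi was listed with these genes, at 104 CPM in cirrhosis and 421 CPM in control over all barcodes (log2 ratio -2.02). In biliary-only barcodes it had 6 UMIs in cirrhosis and 0 in control, and in the mesothelial barcodes it reached 3788 and 3450 CPM. Haptoglobin (Hp), an acute-phase protein of hepatocytes, stood at 292 and 131 CPM over all cholangiocyte barcodes (1.16), with 4548 and 2779 CPM in the hepatocyte barcodes. Hepatocyte markers took a median of 1.44% of UMIs in cirrhosis and 1.66% in control biliary-only barcodes, against 0.0758% and 0.0435% in LSEC barcodes.

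Bile transport genes gave a median log2 ratio of 0.01 in biliary-only barcodes, where 5 of 10 were higher, 5 lower and 1 past 2-fold higher. Over all barcodes it was -0.35, where 4 of 11 were higher, 7 lower and 1 past 2-fold lower. The shares of all genes that were higher were 49.4% and 55.4%. Fxyd3, a regulator of the sodium pump, stood at 646 CPM in cirrhosis and 216 CPM in control biliary-only barcodes (log2 ratio 1.58, 1.24 to 1.94), and its ratio over all barcodes was 0.83. Slc5a1, the sodium-glucose cotransporter, stood at 112 and 197 CPM there (-0.82, -1.28 to -0.35) and at 75.2 and 176 CPM over all barcodes (-1.23). The water channel gene Aqp1 stood at 1369 and 856 CPM over all barcodes (0.68) but at 55.4 and 69.4 CPM in biliary-only ones (-0.32, -1.06 to 0.44), and LSEC barcodes held 4331 and 4378 CPM. Cyp4b1 was also highest in LSEC barcodes but lower in cirrhosis in each set. It stood at 97.6 and 183 CPM over all barcodes, 5.28 and 24.0 CPM in biliary-only barcodes and 406 and 983 CPM in LSEC barcodes.

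Few primary cilium genes entered, and their ratios were small. The list includes Pkhd1, on which the cells were chosen. Over all barcodes 7 of 24 entered, 1 higher, 6 lower and none past 2-fold, with a median of -0.25, where 44.6% of all genes were lower. In biliary-only barcodes 2 were higher and 5 lower, with a median of -0.14, where 50.6% of all genes were lower. The medians of the interval bounds there were -0.62 and 0.36. With so few genes these splits are a description. Dcdc2a, a microtubule-binding protein gene of the cilium, stood at 338 CPM in cirrhosis and 523 CPM in control biliary-only barcodes (log2 ratio -0.63, -0.90 to -0.35), with -0.71 over all barcodes. Ift57, of the transport machinery of the cilium, stood at 58.1 and 93.4 CPM (-0.68) and the transcription factor gene Glis3 at 72.6 and 80.0 CPM (-0.14, -0.81 to 0.55).

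Tight junction genes gave medians of -0.01 in biliary-only and -0.21 in all barcodes, and none of the 10 genes that entered in all barcodes was past 2-fold. In biliary-only barcodes 12 entered, 6 higher and 6 lower, with 1 past 2-fold in each direction, where 49.4% of all genes were higher. Cldn2, a claudin that forms pores for cations and water, stood at 120 CPM in cirrhosis and 29.3 CPM in control biliary-only barcodes (log2 ratio 2.03, 1.13 to 3.09), in 26 of 47 and 5 of 23 cells, and at 68.8 and 40.7 CPM over all barcodes (0.76). Cldn8, a claudin gene named after its values were seen, stood at 43.6 and 104 CPM there (-1.26, -1.97 to -0.55), in 20 of 47 and 17 of 23 cells. Cgn, the junction plaque protein cingulin, stood at 91.1 and 98.7 CPM in biliary-only barcodes (-0.12).

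Immediate-early genes, which encode the transcription factors of the AP-1 and KLF families and their regulators, were lower in cirrhosis. Of the list, 0 of 18 were higher and 18 lower over all barcodes, with 8 past 2-fold and a median of -0.95, where 44.6% of all genes were lower by any amount. In biliary-only barcodes 0 of 17 were higher, 17 were lower and 5 were past 2-fold, with a median of -0.74, against 50.6% of all genes lower. This direction was the same in both sets of barcodes.

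Atf3, a stress-induced factor that pairs with Jun proteins, stood at 773 CPM in cirrhosis and 2254 CPM in control over all barcodes (log2 ratio -1.54) and at 1212 and 3135 CPM in biliary-only barcodes (-1.37, -1.50 to -1.25). Its median per biliary-only cell was 556 CPM in cirrhosis, with UMIs in 37 of 47 cells, and 3360 CPM in control, with UMIs in 23 of 23. Most cirrhosis cells without an Atf3 UMI had at most 4483 UMIs in total, while the shallowest control cell had 8440. Socs3, the inhibitor of cytokine signalling that STAT3 induces, stood at 40.9 and 240.1 CPM in biliary-only barcodes (-2.55, -3.19 to -1.95). Klf6 stood at 391 and 1403 CPM there (-1.84, -2.05 to -1.64) and Fosb at 482 and 824 CPM (-0.77). Fos, added to the named genes after its values were seen, stood at 2095 and 3330 CPM (-0.67), with medians of 1598 and 3672 CPM per cell. Over all barcodes the ratios were -1.90 for Socs3, -1.55 for Klf6, -1.48 for Fosb and -1.42 for Fos.

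The LSEC barcodes of the same libraries went the same way for several of these genes. Fos stood at 225 CPM in cirrhosis and 2173 CPM in control LSEC barcodes, Fosb at 90.5 and 1121 CPM, Socs3 at 105 and 462 CPM and Atf3 at 9.85 and 69.6 CPM. The order of the libraries was therefore not confined to cholangiocytes. With 1 library a group, the condition and the handling of that library cannot be told apart.

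Targets of the YAP and TEAD factors, which answer to cell stretch and contact, gave a median of -0.28 in biliary-only barcodes. There 4 of 12 were higher and 8 lower, with 1 and 3 past 2-fold. Over all barcodes the median was -0.30, 5 of 14 higher and 9 lower with 0 and 3 past 2-fold. By any amount, 50.6% and 44.6% of all genes were lower in these sets, and 2.74% and 1.64% past 2-fold lower. Cyr61, a secreted matrix protein gene, stood at 1523 CPM in cirrhosis and 3506 CPM in control biliary-only barcodes (log2 ratio -1.20, -1.32 to -1.09). Ankrd1 stood at 1108 and 2161 CPM (-0.96, -1.11 to -0.82), with medians of 87.3 and 1774 CPM per cell and UMIs in 30 of 47 and 22 of 23 cells. F3, which encodes tissue factor, stood at 81.8 and 168 CPM (-1.04). Klf6 is in this list and the one above. Ctgf went the other way, at 259 and 90.7 CPM (1.51), and it was named after its values were seen.

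**Figure D4:**
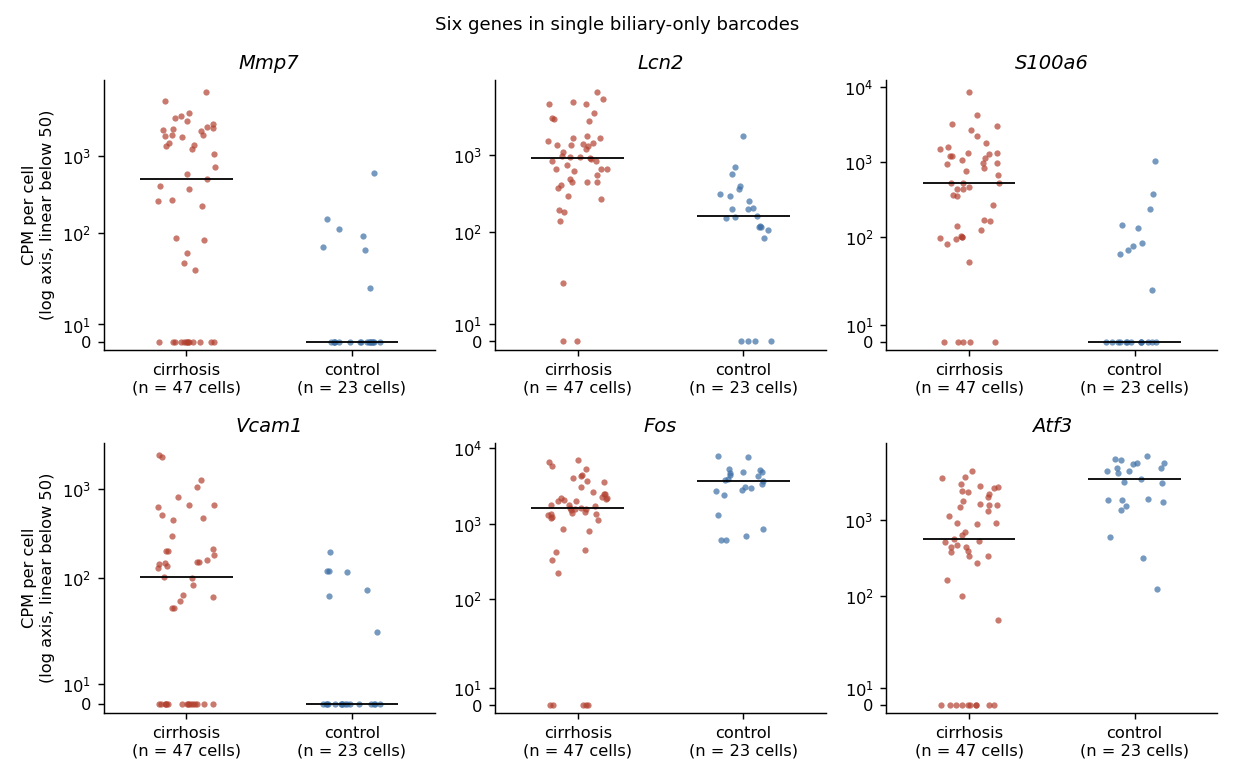
Each point is 1 biliary-only barcode, with the CPM of the gene in that cell on a y axis that is logarithmic above 50 and linear below, and horizontal lines at the medians over 47 cirrhosis and 23 control cells. The medians are 513 and 0 for Mmp7, 912 and 160 for Lcn2, 524 and 0 for S100a6, 102 and 0 for Vcam1, 1598 and 3672 for Fos, and 556 and 3360 for Atf3. The cells are not matched for depth.

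Interferon-stimulated genes were mostly higher in cirrhosis, but much of the difference lay in few cells. In biliary-only barcodes 13 of 14 were higher, with 7 past 2-fold and a median of 1.11. Among all genes there, 49.4% were higher and 3.06% past 2-fold higher. Over all barcodes 11 of 12 were higher, with 1 past 2-fold and a median of 0.41, where the shares were 55.4% and 1.66%. Isg15, the ubiquitin-like interferon product, stood at 256 CPM in cirrhosis and 18.7 CPM in control biliary-only barcodes (log2 ratio 3.78, 2.71 to 5.11), in 24 of 47 and 7 of 23 cells, and 1 cirrhosis cell gave 47.4% of its UMIs. Without the top cell of each library the ratio of Isg15 was 3.06. Of Ifit3, singled out after its values were seen, 1 cirrhosis cell gave 93.7% of the biliary-only UMIs. Isg15 and Ifit3 were also higher in the LSEC barcodes of the cirrhosis library, at 81.1 against 41.7 CPM and 72.0 against 21.8 CPM. In hepatocyte barcodes they stood at 73.6 against 11.3 CPM and 13.7 against 9.39 CPM. For these genes the order of the libraries was therefore not confined to cholangiocytes. Irf1, a factor induced by interferon gamma, stood at 121 and 109 CPM (0.15) in biliary-only barcodes and at 75.5 and 141 CPM over all barcodes (-0.90).

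The antigen presentation lists also differed between the sets of barcodes. Class I pathway genes had a median of -0.15 over all barcodes, 1 of 10 higher and 9 lower, and of 0.20 in biliary-only barcodes, 7 of 11 higher and 4 lower. H2-K1 stood at 2622 CPM in cirrhosis and 3258 CPM in control biliary-only barcodes (log2 ratio -0.31, -0.42 to -0.21), and at 968 and 1973 CPM in LSEC barcodes, and H2-Q4 at 256 and 344 CPM in biliary-only barcodes (-0.43). Class II pathway genes had medians of 0.67 in biliary-only barcodes, with 6 of 6 higher, and 0.47 over all barcodes, with 5 of 6 higher. Beside the counts of both classes, 49.4% of all genes were higher in biliary-only barcodes and 55.4% over all barcodes. H2-Aa stood at 890 and 462 CPM in biliary-only barcodes, in 12 of 47 and 10 of 23 cells, and 1 cell gave 55.2% of its UMIs in cirrhosis and 1 cell 89.6% in control. The log2 ratio of H2-Aa was 0.95 with these cells and 3.05 without them. H2-DMa stood at 99.0 and 40.0 CPM, in 3 and 5 cells. No list of dendritic cell markers was used, so their share in these cells was not tested.

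Matrix and integrin genes had a median of 0.15 in biliary-only barcodes, 9 of 11 higher and 1 past 2-fold, against 49.4% and 3.06% of all genes. Over all barcodes the median was 0.20, against 55.4% of all genes higher and 1.66% past 2-fold higher. In that set 13 of 17 were higher and 3 past 2-fold. The 3 were genes of basement membrane that endothelial cells express. Col4a1 stood at 347 CPM in cirrhosis and 131 CPM in control over all barcodes (log2 ratio 1.40), at 62.0 and 34.7 CPM in biliary-only barcodes and at 742 and 481 CPM in LSEC barcodes. Col4a2 stood at 169 and 44.1 CPM over all barcodes (1.94) and Nid1 at 116 and 50.3 CPM (1.20), and in biliary-only barcodes both were too low to enter, at 30.4 and 16.0 CPM and at 6.60 and 2.67 CPM. The integrin gene Itga6 stood at 73.3 and 44.1 CPM over all barcodes (0.73).

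Glycolysis genes had medians of 0.33 in biliary-only and 0.31 in all barcodes, with Ldha at 279 CPM in cirrhosis and 181 CPM in control over all barcodes (log2 ratio 0.63) and Pgk1 at 134 and 89.6 CPM (0.58). Of 18 cell cycle genes only 4 entered. In biliary-only barcodes 4 were higher, 2 of them past 2-fold, with a median of 0.88, where 49.4% of all genes were higher. Over all barcodes 3 were higher, with a median of 0.55, where 55.4% of all genes were higher. Ccnd1, the cyclin of entry into the cycle, stood at 566 and 269 CPM in biliary-only barcodes (1.07, 0.76 to 1.40; 0.93 over all barcodes) and Stmn1 at 189 and 117 CPM (0.69, 0.19 to 1.21; 0.65 over all barcodes). Hmgb2, a chromatin protein gene named after its values were seen, stood at 308 and 123 CPM in biliary-only barcodes (1.33, 0.86 to 1.81). Notch pathway medians were 0.04 in both sets, and 2 of 5 genes were past 2-fold higher in biliary-only barcodes, against 3.06% of all genes. Jag1, a Notch ligand gene named after its values were seen, stood at 84.5 and 21.3 CPM there (1.98, 0.92 to 3.26), in 18 of 47 and 6 of 23 cells, and its ratio over all barcodes was 0.32. The protease gene Adam10 stood at 71.3 and 32.0 CPM in biliary-only barcodes (1.15, 0.23 to 2.19; 0.89 over all barcodes).

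Among genes of stress and growth arrest, Cdkn1a, which encodes the cell cycle inhibitor p21, stood at 52.8 CPM in cirrhosis and 120 CPM in control biliary-only barcodes (log2 ratio -1.19, -1.84 to -0.54; -0.65 over all barcodes), and Trp53 at 88.4 and 66.7 CPM (0.41, -0.28 to 1.13). The list had medians of 0.25 in biliary-only and 0.03 in all barcodes. Heat shock and endoplasmic reticulum stress genes had medians of 0.09 and -0.22, with Hspb1 at 108 and 259 CPM (-1.26; -0.78 over all barcodes) and the chaperone Hspa5 at 343 and 526 CPM (-0.61) in biliary-only barcodes. Antioxidant genes had medians of 0.03 and 0.08, with Gpx1 at 849 and 686 CPM (0.31) and Gclm at 261 and 197 CPM (0.40). Ribosomal protein genes had medians of 0.16 and 0.14 and mitochondrially encoded genes of -0.12 and -0.10.

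**Figure D5:**
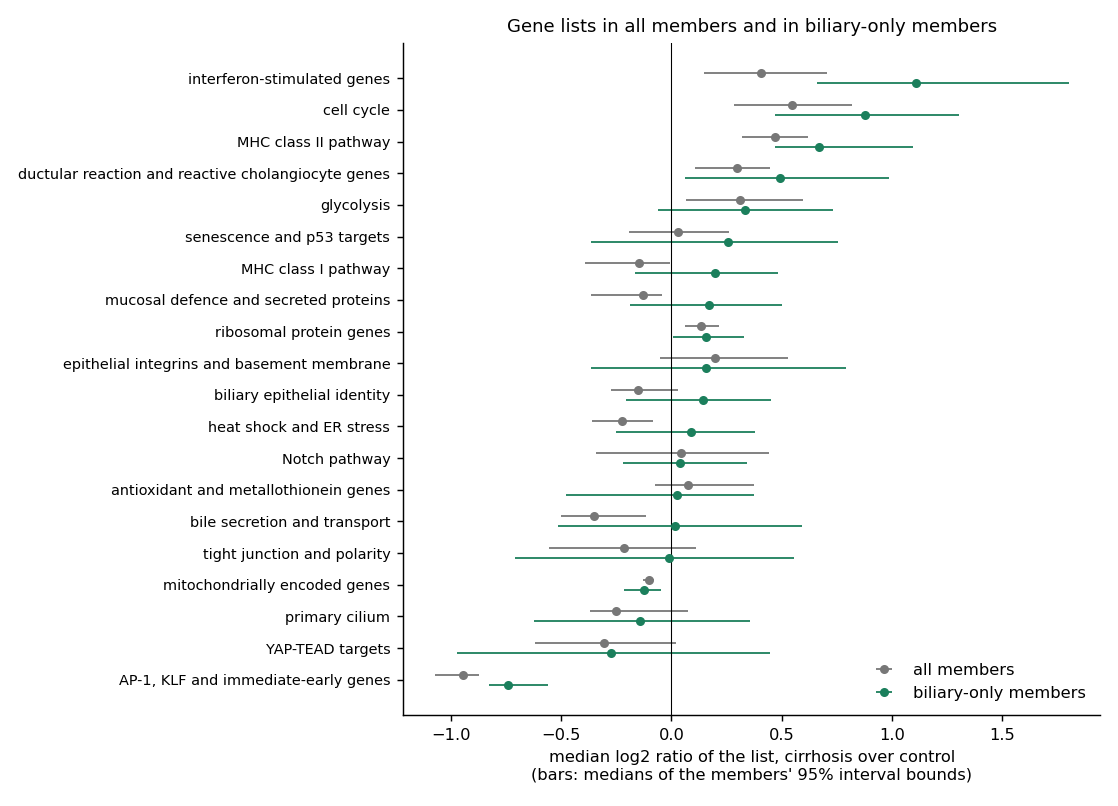
Points give the median log2 ratio, cirrhosis over control, of each gene list in all cholangiocyte barcodes (grey) and in biliary-only barcodes (green), and bars run between the medians of the genes' lower and upper 95% interval bounds. The AP-1, KLF and immediate-early list lies lowest in both sets, at -0.95 and -0.74, and the interferon-stimulated list highest in the biliary-only set, at 1.11.

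Rgs5, which encodes a regulator of G protein signalling and is among the 12 highest ratios over all barcodes, stood at 459 CPM in cirrhosis and 104 CPM in control (log2 ratio 2.14, 1.90 to 2.39). In biliary-only barcodes it stood at 595 and 125 CPM (2.25, 1.81 to 2.71), in 36 of 47 and 11 of 23 cells. Rgs5 is also a marker of pericytes and is itself among the 12 stellate and fibroblast markers. Of these, 9 had UMIs in the cirrhosis biliary-only barcodes, summing to 652 CPM with Lrat, Acta2 and Pdgfrb at 0. In the control ones 6 had UMIs, summing to 211 CPM. Rgs5 itself gave 595 of the 652 CPM and 125 of the 211 CPM, so these sums mostly repeat its own values. The part of the other markers in the result was not tested. Sftpd stood at 333 and 72.0 CPM there (2.21, 1.63 to 2.84), in 31 of 47 and 10 of 23 cells, and at 0 CPM in the hepatocyte barcodes of both libraries. Msmp, a secreted protein gene, stood at 235 and 21.3 CPM, with 70.8% of its cirrhosis UMIs in 1 cell and 87.5% of its control UMIs in 1 cell.

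Of the other genes among the 12 highest over all barcodes, several had their UMIs with the endothelial transcripts. Ednrb, the endothelin receptor B gene, stood at 623 CPM in cirrhosis and 69.6 CPM in control over all barcodes (log2 ratio 3.16), at 6.60 and 2.67 CPM in biliary-only barcodes and at 1342 and 89.2 CPM in LSEC barcodes. Ly6a, a surface antigen gene, stood at 662 and 89.6 CPM (2.88), with 24 and 3 UMIs in biliary-only barcodes and at 1307 and 243 CPM in LSEC barcodes. Pcdh17 (2.40) and Thbd (2.08) likewise had at most 5.34 CPM in the biliary-only barcodes of either library. The hepatocyte genes Cyp2c29 (3.98), Cyp3a11 (3.08) and Orm1 (2.02) stood at 1729, 1827 and 1812 CPM in cirrhosis and at 272, 620 and 1061 CPM in control hepatocyte barcodes. Their part in the cholangiocyte ratios was not tested.

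Among the 12 lowest ratios, Dcn, Gas1, Igfbp6, Upk3b, Col3a1 and Rarres2 had their UMIs largely in the mesothelial barcodes, which were 3 in cirrhosis and 9 in control. Dcn, the matrix proteoglycan decorin, stood at 45.0 CPM in cirrhosis and 483 CPM in control over all barcodes (log2 ratio -3.42), at 1364 and 3729 CPM in mesothelial barcodes and at 9.24 and 42.7 CPM in biliary-only ones. Igfbp6 and Upk3b had 0 UMIs in the biliary-only barcodes of both libraries. Mup11 (-9.72) and Mup3 (-2.08) are major urinary protein genes of hepatocytes, a family in which some members are near-identical copies. They stood at 0.312 and 3048 CPM in cirrhosis and at 6633 and 17039 CPM in control hepatocyte barcodes. In biliary-only barcodes, Fam71a stood at 14.5 and 160.1 CPM (-3.46, -4.54 to -2.52), in 4 of 47 and 15 of 23 cells, and C2cd4b at 31.7 and 98.7 CPM (-1.64), in 5 and 11 cells.

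Biliary-only cells also varied among themselves. Spearman correlations of CPM over the cells of 1 library, given as a description of cells that share that library and differ in depth, were 0.58 for Fos with Egr1 over 47 cirrhosis cells and -0.01 over 23 control cells, and 0.53 and 0.09 for S100a6 with Mmp7. For Mmp7 with Lcn2 they were 0.39 and -0.38, and for Spp1 with Clu, the secreted chaperone clusterin, 0.44 and 0.51. Total UMIs ran between 1506 and 54187 in the cirrhosis cells and between 8440 and 33851 in the control cells.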

How the data were processed

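Liver cells were profiled in 2 droplet libraries, 1 for cirrhosis and 1 for control, each made from 3 pooled mice. The authors deposited UMI counts per gene and barcode, as whole numbers. The submitters' processing notes name Cell Ranger and mm10 without a version. The gene annotation, and whether barcodes were filtered before deposit, are not stated in these sources. The lowest total was 500 UMIs in both tables. Barcodes were chosen by the rule given in the report. Doublets were marked per library with Scrublet (scanpy 1.11.5), taking the top-scoring 0.8% for each 1000 barcodes of the library, and were kept, with a count without them as an alternative.

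UMIs were summed per library and scaled to CPM (Python 3.11.15, numpy 2.4.6, pandas 2.3.3, scipy 1.17.1). Log2 ratios carry an exact conditional 95% interval from the split of a gene's UMIs, and shares a Clopper-Pearson interval; both cover counting error only. With 1 library a group no test was possible. LSEC barcodes needed at least 0.5% of UMIs from the 4 LSEC genes, and hepatocyte barcodes at least 5% from 6 hepatocyte genes, both with 0 UMIs of the 4 epithelial genes. The ratio and interval code was tested on simulated data. Positions are from GENCODE M21 on GRCm38, in which 30464 of 31057 symbols were found, and promoters are from RefSeq.

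Named genes were the cholangiocyte markers, the largest ratios of each list (up to 4, or 2 in lists of lesser interest), the 12 highest and 12 lowest ratios, the 15 highest over other barcodes, and the reporters; 6 predicted, pseudogene, immunoglobulin or haemoglobin symbols past 2-fold were left unnamed. The cells, lists and rules were chosen with earlier results of these data known. Alternatives covered scaling, filters, marker limits, doublets, hepatocyte transcripts, cell weights and thinning. The biliary-only barcodes, the limit on pan-endothelial markers, the omission of mesothelial barcodes and the removal of the LSEC limit were chosen after seeing the data. Some of the named genes are not reported here.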

Additional observations from a re-analysis of the deposited data

How the results depend on the processing

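No paired analysis was possible because each group was 1 library, so no library was left out either. The medians of the primary cilium and the integrin lists moved by less than their spread under every alternative run, and the immediate-early median stayed below 0 in all of them.

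With no minimum other than 1 UMI in each library, 908 genes (6.29%) were past 2-fold higher and 1309 (9.07%) past 2-fold lower, and the bile secretion and mucosal medians were 0.0241 and -0.0183. With a mean of at least 200 CPM these counts were 14 and 23 (3.22%), and the medians were 0.68 for bile secretion, 0.0773 for the ductular reaction and -1.12 for YAP-TEAD targets. Both changes follow from which genes enter. With cells thinned to 2000 UMIs, 125 genes (4.52%) were higher and 117 (4.23%) lower, the ductular median was -0.0160, and eGFP_mTmG stood at 483 CPM in cirrhosis and 507 CPM in control.

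With LSEC genes under 0.1%, 130 genes (3.65%) were higher and 2.47% lower, the medians were 0.25 for bile secretion, 0.0464 for mucosal defence, 0.48 for the ductular reaction and -0.67 for immediate-early genes, and cholangiocytes made up 0.822% in cirrhosis and 0.735% in control.

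With pan-endothelial markers under 0.1%, 120 genes (3.48%) were higher and 107 (3.10%) lower, the medians were 0.14 for biliary identity, 0.0167 for bile secretion, 0.12 for mucosal defence and -0.84 for immediate-early genes, and the log2 ratios of Nid1 and Thbd were -0.16 and -1.89. The shares were then 0.666% in cirrhosis and 0.561% in control, eGFP_mTmG stood at 55.6 and 92.5 CPM, and tdTomato at 192 and 363 CPM.

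In the biliary-only barcodes 105 genes (3.06%) were higher and 94 (2.74%) lower, the medians were 0.14, 0.0146, 0.17, 0.49 and -0.74 for biliary identity, bile secretion, mucosal defence, the ductular reaction and immediate-early genes, and the ratios of Gas1 and Thbd were 0.98 and -2.02, from 5 and 3 UMIs. The shares were 0.613% in cirrhosis and 0.445% in control, eGFP_mTmG stood at 60.7 and 82.7 CPM, and tdTomato at 198 and 411 CPM.

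Without the LSEC limit the biliary identity and mucosal medians were 0.11 and 0.0621, and in control the share was 2.21%, eGFP_mTmG 770.0 CPM and tdTomato 166 CPM. Without hepatocyte, haemoglobin, mitochondrial and ribosomal genes in the total, the bile secretion median was -0.0890 and the ductular one 0.52. The ductular median was 0.60 with at least 12 marker UMIs, 0.52 with at least 3, where the cirrhosis share was 2.26%, and 0.63 without mesothelial barcodes, where Col3a1 and Gas1 stood at 0.27 and 0.73. Without Scrublet-marked barcodes the immediate-early median was -0.83. The cirrhosis share was 2.59% with at least 2000 UMIs and under 10% mitochondrial counts, and thinning before the rule gave 0.227% in cirrhosis and 0.257% in control. Except where stated, the cause of these shifts was not tested. The depth of the control biliary-only barcodes limits genes under about 50 CPM.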
